A study of Homo sapiens with 6 samples.

Results

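The replication-dependent histone genes, the genes that supply the H1, H2A, H2B, H3 and H4 proteins for new chromatin, were read across arrays of the human triple-negative breast cancer line MDA-MB-231. The genes were taken by symbol alone: H1-1 to H1-6, and every symbol of the array's annotation that is H2AC, H2BC, H3C or H4C followed by a number. This gave 61 genes of the 17687 named genes on the array, each read by 1 probe set: 6 H1, 14 H2A, 17 H2B, 9 H3 and 15 H4 genes. The gene table of GRCh38.p14 holds 69 protein-coding genes of the rule, and 8 of them (*H2AC7*, *H2AC16*, *H2AC17*, *H2BC15*, *H3C4*, *H3C12*, *H3C14* and *H3C15*) had no probe set of that name and were not analysed here. The tested cells carried a plasmid that overexpresses *circAAGAB*, a circular RNA of the *AAGAB* gene, and the control cells carried the empty vector. RNA was taken 24 h after transfection in both groups, with 3 arrays each, numbered 1 to 3 by the labels. All 6 arrays came from 1 cell line, and no source used here names separate cultures for them. The study's statistics section speaks of independent experiments in general without naming the arrays. The p-values then rest on the spread between these arrays, part or all of which may be technical.

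As a rule, replication-dependent histone genes have no introns, and their mRNAs end in a conserved stem-loop in place of a poly(A) tail. They are transcribed in S phase under the coactivator NPAT, in nuclear bodies that form at the histone gene clusters. The stem-loop is bound by SLBP, and the mRNAs are degraded when DNA synthesis stops. Core histones H2A, H2B, H3 and H4 form the nucleosome, and the linker histone H1 binds the DNA between nucleosomes.

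To show the promoter elements of each class, the 200 bases before the start of 1 gene of each class are given below, read from RefSeq promoters (GRCh38.p14, 5′ to 3′ on the gene's strand). In each class it is the gene with the smallest p for the group difference among those with a promoter entry. Capitals mark matches, on either strand, to the octamer ATTTGCAT (bound by POU2F1), the H1 box AAACACA, the CCAAT box CCAAT, the TATA box TATAAA and the H4 element GGTCCG (part of the HINFP binding site).
H1-1, chr6:26017788-26017987, minus strand: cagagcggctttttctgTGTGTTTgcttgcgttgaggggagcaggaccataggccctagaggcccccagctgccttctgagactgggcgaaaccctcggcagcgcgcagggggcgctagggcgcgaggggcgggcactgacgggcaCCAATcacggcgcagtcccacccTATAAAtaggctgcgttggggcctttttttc
H2AC8, chr6:26216721-26216920, plus strand: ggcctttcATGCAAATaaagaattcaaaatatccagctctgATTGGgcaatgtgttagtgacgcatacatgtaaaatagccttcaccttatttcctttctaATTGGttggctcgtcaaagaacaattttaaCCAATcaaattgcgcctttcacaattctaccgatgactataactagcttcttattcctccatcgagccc
H2BC17, chr6:27893225-27893424, plus strand: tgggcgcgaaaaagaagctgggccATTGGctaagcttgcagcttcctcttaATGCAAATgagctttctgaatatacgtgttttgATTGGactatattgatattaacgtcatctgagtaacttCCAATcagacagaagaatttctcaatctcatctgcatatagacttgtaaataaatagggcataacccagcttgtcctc
H3C10, chr6:27809851-27810050, plus strand: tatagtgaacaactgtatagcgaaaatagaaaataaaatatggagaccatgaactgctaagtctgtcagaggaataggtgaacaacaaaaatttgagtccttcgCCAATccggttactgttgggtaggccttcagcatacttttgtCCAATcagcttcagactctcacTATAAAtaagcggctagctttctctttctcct
H4C12, chr6:27831561-27831760, minus strand: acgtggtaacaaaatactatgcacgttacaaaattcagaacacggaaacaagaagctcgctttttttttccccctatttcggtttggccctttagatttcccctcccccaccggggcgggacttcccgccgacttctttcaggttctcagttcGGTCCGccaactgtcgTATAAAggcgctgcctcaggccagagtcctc
The *H1-1* stretch held the H1 box, a CCAAT box and a TATA box. *H2AC8* and *H2BC17* each held 1 octamer and 3 CCAAT boxes. *H3C10* had 2 CCAAT boxes and a TATA box, and *H4C12* the H4 element and a TATA box.

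Over whole promoter windows, 250 bases before to 50 after the start, 57 of the 61 genes had an entry. The motifs divided the genes by class. The octamer stood in 8 of 13 H2A and 14 of 17 H2B windows and in none of the other 27 with an entry, against 1.8% of the 27305 windows of all genes. The H1 box was found in all 6 H1 windows and in 1 H2A window (5.76% of all genes). The H4 element was found in 12 of 13 H4 windows and in 1 window each of H2A, H2B and H3 (11.2% of all genes). The CCAAT box was present in every window of H1, H2A, H2B and H3 and in 3 of 13 of H4 (35.7% of all genes), and the TATA box in 39 of 57 (12% of all genes). A match is a description of letters and not of a bound site. In 8 pairs an H2A and an H2B gene faced away from each other with starts 215 to 248 bases apart, so their windows overlap and can hold the same octamer. Neither window held an octamer in the pairs *H2BC13* with *H2AC13* and *H2AC25* with *H2BC26*.

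**Figure D1:**
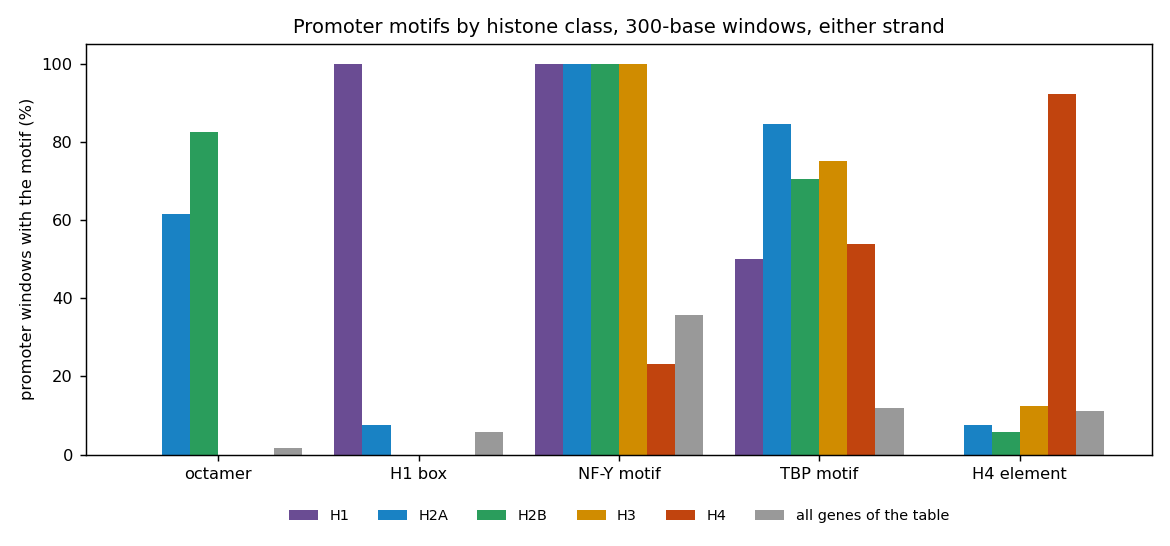
Percentage of promoter windows (y axis) that hold each motif (x axis), for the 5 histone classes and for all genes of the promoter table. The NF-Y motif is the CCAAT box and the TBP motif the TATA box; the octamer is found in 61.5% of H2A and 82.4% of H2B windows, the H1 box in 100% of H1 windows and the H4 element in 92.3% of H4 windows.

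The values were RMA-normalized log2 signals, 1 per probe set and array, and array medians lay between 5.7 and 5.8. The probe set of *AAGAB* averaged 11.28 ± 0.41 with *circAAGAB* overexpression and 7.67 ± 0.09 with the empty vector (SD, n = 3 each). This difference of 3.61 (SE 0.22, limma, adjusted p = 0.0032) runs the way the labels say, although no source says whether the probes read the circular or the linear RNA. Each gene's mean over the 6 arrays was set against a gauge of background of 4.65, the 95th percentile of 348 olfactory receptor genes. Of the line's markers *VIM*, *CD44*, *AXL*, *CAV1*, *EGFR*, *FN1* and *MSN* were above the gauge, *ESR1*, *PGR*, *CDH1* and *FOXA1* were below it, and *EPCAM*, *GATA3* and *KRT8*, listed as low or absent, were above it. Of markers of blood cells and stroma, *PTPRC*, *CD3E*, *MS4A1*, *HBB*, *DCN*, *LUM* and *PECAM1* were below the gauge. *CD14*, *VWF* and *PDGFRA* were above it.

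With *circAAGAB* overexpression the histone genes sat slightly higher as a group, and no single gene passed the test. The median log2 difference between *circAAGAB* overexpression and empty vector was 0.09 over the 61 genes (quartiles 0.03 and 0.16), against -0.0017 over all 21448 probe sets (quartiles -0.11 and 0.12). In fold terms the histone median was 1.07. A total of 50 genes were higher and 11 lower, or 82.0% higher against a background of 49.6%. By limma with Benjamini-Hochberg adjustment over all probe sets, 0 of the 61 were called at an adjusted p under 0.05 (background 0.00466%, which is *AAGAB* alone), and the smallest adjusted p among them was 1.00. At an unadjusted p under 0.05 there was 1 gene, *H1-1* (background 2.18%), and 0 were both past 1.5-fold and under that p (background 0.373%). The 2 groups' ranges did not overlap for 8 genes, all higher with *circAAGAB* overexpression (13.1% of the 61, background 3.87% higher), and for 0 genes were they all lower (background 4.04%). The 8 were *H1-1*, *H2AC21*, *H2BC17*, *H2BC21*, *H3C1*, *H3C6*, *H3C10* and *H4C12*. The 48 histone genes above the gauge had a median difference of 0.09 and the 13 below it 0.11. Within replicate number 1 these medians were 0.05, with 29 of 48 higher, and -0.10, with 5 of 13 higher. After quantile normalization the ranges of 3 genes did not overlap, in either direction, against 8.72% of all probe sets.

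**Figure D2:**
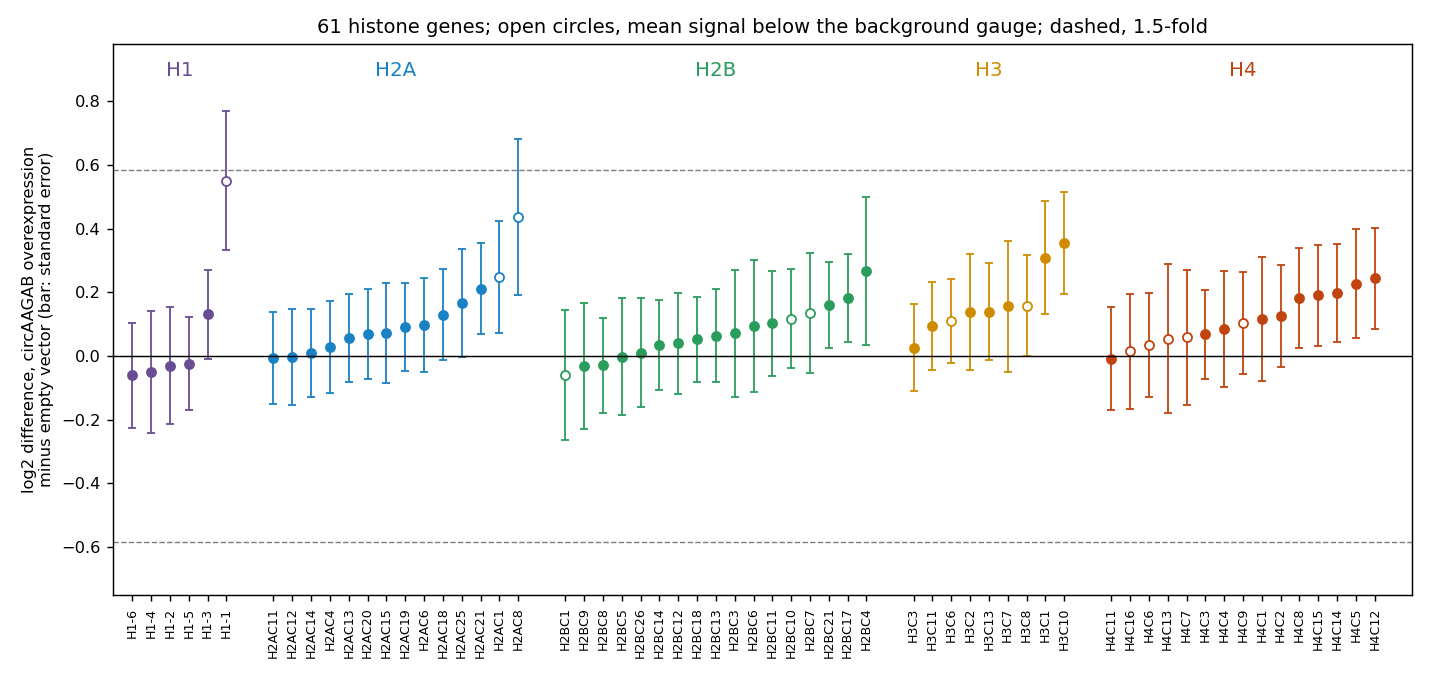
Log2 difference between circAAGAB overexpression and empty vector (y axis, points) with its standard error (bars) for each of the 61 genes (x axis), ordered within class, and open circles for genes below the background gauge. Values run from -0.06 to 0.55, no gene reaches the dashed 1.5-fold lines, and H3 is the class with all 9 genes above 0.

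The linker histones showed no common direction. Their median difference was -0.03, and 2 of 6 were higher, compared with 48 of the 55 core histone genes. This difference between the classes was not tested. Within replicate numbers 1, 2 and 3 the H1 medians were all positive, at 0.03, 0.15 and 0.05, compared with 0.04, 0.20 and 0.10 for the core genes. *H1-1*, a somatic linker histone with restricted expression, read 4.15, 3.62 and 3.32 with *circAAGAB* overexpression and 3.05, 3.20 and 3.18 with the empty vector. All 3 overexpression arrays were above the control arrays, array 1 by most, and the whole range lay below the gauge. The log2 difference was 0.55 (SE 0.22, limma, unadjusted p = 0.035, adjusted p = 1.00), and 0.32 without overexpression array 1. *H1-3*, another somatic subtype, read 5.80, 5.63 and 5.69 with *circAAGAB* overexpression against 5.59, 5.48 and 5.66, and overexpression array 2 fell inside the control range. *H1-4*, a widely expressed somatic subtype, read 11.84, 11.54 and 11.21 with *circAAGAB* overexpression and 11.75, 11.54 and 11.45 with the empty vector. Its groups overlapped and array 1 was the highest of each, with a log2 difference of -0.05 (SE 0.19). The testis-specific *H1-6* read 5.16, 4.86 and 5.23 against 5.31, 5.10 and 5.02, also overlapping, and its -0.06 was the lowest difference among the 61 genes. *H1-2* and *H1-5*, the remaining subtypes, stood at -0.03 and -0.02.

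In the H2A class 12 of 14 genes were higher, with a median of 0.08. *H2AC21*, in the chromosome 1 cluster, read 9.02, 8.98 and 8.80 with *circAAGAB* overexpression and 8.79, 8.75 and 8.63 with the empty vector. The groups did not overlap, though the lowest overexpression value exceeded the highest control value by little, and the log2 difference was 0.21 (SE 0.14). *H2AC8* read 2.92, 3.66 and 3.42 with *circAAGAB* overexpression and 3.19, 2.52 and 2.98 with the empty vector. Its difference of 0.44 (SE 0.25) was the largest of the class, but overexpression array 1 lay under 2 control arrays and all values were below the gauge. Without overexpression array 2 the difference was 0.27, and without control array 2 it was 0.25. *H2AC1*, which codes for a testis H2A and whose mean lay below the gauge, read 4.80, 4.48 and 4.28 against 4.41, 4.19 and 4.2 in the control. *H2AC25* read 5.39, 5.28 and 4.89 with *circAAGAB* overexpression and 5.07, 5.0 and 4.99 with the empty vector. Both overlapped, since overexpression array 3 was within or below the control values. The other 10 H2A genes differed less, from -0.0064 for *H2AC11* to 0.13 for *H2AC18*.

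The H2B genes split more evenly, with 13 of 17 higher and a median of 0.06. *H2BC17* read 7.14, 7.08 and 7.30 with *circAAGAB* overexpression and 6.94, 7.03 and 7.01 with the empty vector. *H2BC21*, whose gene also gives a polyadenylated transcript, read 8.67, 8.69 and 8.55 against 8.49, 8.52 and 8.41. Neither gene's groups overlapped, and the log2 differences were 0.18 (SE 0.14) and 0.16 (SE 0.14). *H2BC4* had the largest difference of the class, 0.27 (SE 0.23), with 6.70, 7.33 and 7.11 under *circAAGAB* overexpression and 6.38, 6.95 and 7.0 under the empty vector. Here the arrays of replicate number 1 were the lowest of both groups, and the groups overlapped. The difference was 0.44 without overexpression array 1, 0.12 without overexpression array 2 and 0.07 without control array 1. At the other end *H2BC1*, the testis H2B, read 2.87, 3.30 and 2.62 with *circAAGAB* overexpression and 3.07, 3.11 and 2.79 with the empty vector, a difference of -0.06 (SE 0.20) below the gauge. *H2BC10*, also below it, differed by 0.12 (SE 0.16), with overlap. The spans in the gene table were 10757 bases for *H2BC4*, 2224 for *H2BC21*, 3296 for *H3C6* and 16753 for *H4C15*, longer than for most histone genes. Which transcripts their probe sets read is not given in the sources used here.

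All 9 H3 genes were higher with *circAAGAB* overexpression, the only class with none lower, and their median was 0.14. *H3C10* read 7.38, 7.50 and 7.16 with *circAAGAB* overexpression and 7.01, 7.13 and 6.84 with the empty vector. Every overexpression array was above every control array, and each stood 0.32 to 0.37 above the control array of its own number. The log2 difference was 0.35 (SE 0.16, limma, unadjusted p = 0.057, adjusted p = 1.00). *H3C1* read 7.47, 7.83 and 7.39 against 7.38, 7.33 and 7.06 in the control, again without overlap but with overexpression array 3 barely above control array 1, and the difference was 0.31 (SE 0.18). *H3C6* read 2.75, 2.77 and 2.77 with *circAAGAB* overexpression and 2.64, 2.67 and 2.65 with the empty vector. Its arrays did not overlap because they hardly varied, and its 0.11 (SE 0.13) lies far below the gauge. *H3C13*, a gene for the H3.2 protein on chromosome 1, read 7.66, 7.92 and 7.61 against 7.57, 7.69 and 7.50, and *H3C8* differed by 0.16 (SE 0.16) below the gauge. Both overlapped.

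Of the H4 genes 14 of 15 were higher, with a median of 0.10. *H4C12* read 7.66, 8.02 and 7.73 with *circAAGAB* overexpression and 7.62, 7.62 and 7.44 with the empty vector. The groups did not overlap, overexpression array 2 stood highest and overexpression array 1 was close to the controls, for a log2 difference of 0.24 (SE 0.16). *H4C5* read 6.34, 6.79 and 6.40 against 6.20, 6.42 and 6.22 in the control and overlapped through control array 2, with a difference of 0.23 (SE 0.17). *H4C14* read 9.66, 9.76 and 9.53 with *circAAGAB* overexpression and 9.61, 9.46 and 9.28 with the empty vector. *H4C15* read 9.63, 9.78 and 9.46 against 9.57, 9.45 and 9.28, nearly the same numbers, and in both control array 1 reached into the overexpression range. These genes code for the same H4 protein, and whether their probes tell the transcripts apart is not given in the sources used here; the same holds for *H2AC18* and *H2AC19* and other near-identical copies, whose values are uncertain for that reason and are not independent. *H4C11* was the 1 lower H4 gene, with a difference of -0.0078 (SE 0.16).

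The shift rested largely on 1 array of each group. Taken as deviations from each gene's mean over the 6 arrays, the median over the 61 genes was 0.02, 0.17 and -0.03 on *circAAGAB* overexpression arrays 1, 2 and 3, and -0.02, -0.01 and -0.12 on empty vector arrays 1, 2 and 3. Overexpression array 2 was high and control array 3 low, while the other 4 arrays lay within 0.03 of 0. Overexpression array 2 gave the highest value of 35 of the 61 genes (57.4%, against 14.8% of all probe sets), and control array 3 the lowest of 30 (49.2%, against 13.8%). Overexpression array 2 also gave the highest value more often than over all probe sets in some related lists. It was highest for 33.3% of DNA replication and G1 to S genes, 31.6% of histone mRNA decay genes and 31.25% of replication-independent variants. The share was 25% for histone transcription and mRNA 3′ end genes, 16% for mitotic genes and 8.7% for chaperones. Overexpression array 3 was highest more often for decay genes (42.1%) and mitotic genes (48%), and overexpression array 1 for the variants (37.5%). Control array 3 was lowest for 18.75% of variants, 10% of mitotic, 5.9% of G1 to S and 4.2% of transcription and 3′ end genes. For decay genes and chaperones that share was 0%, and control array 3 was highest for 34.8% of chaperones and 23.5% of G1 to S genes. For 47 genes (77.0%, against 24.9% of all probe sets) overexpression array 2 stood above all 3 control arrays. Array 1 did so for 26 genes (42.6%, against 37.1%) and array 3 for 15 (24.6%, against 27.1%). After quantile normalization the medians on these outlying arrays were 0.17 and -0.12. Without overexpression array 2 the median difference was 0.04, with 38 of 61 genes higher, and without control array 3 it was 0.06, with 42 higher. The share of all probe sets that were higher without these arrays was not computed, so these counts have no background beside them.

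**Figure D3:**
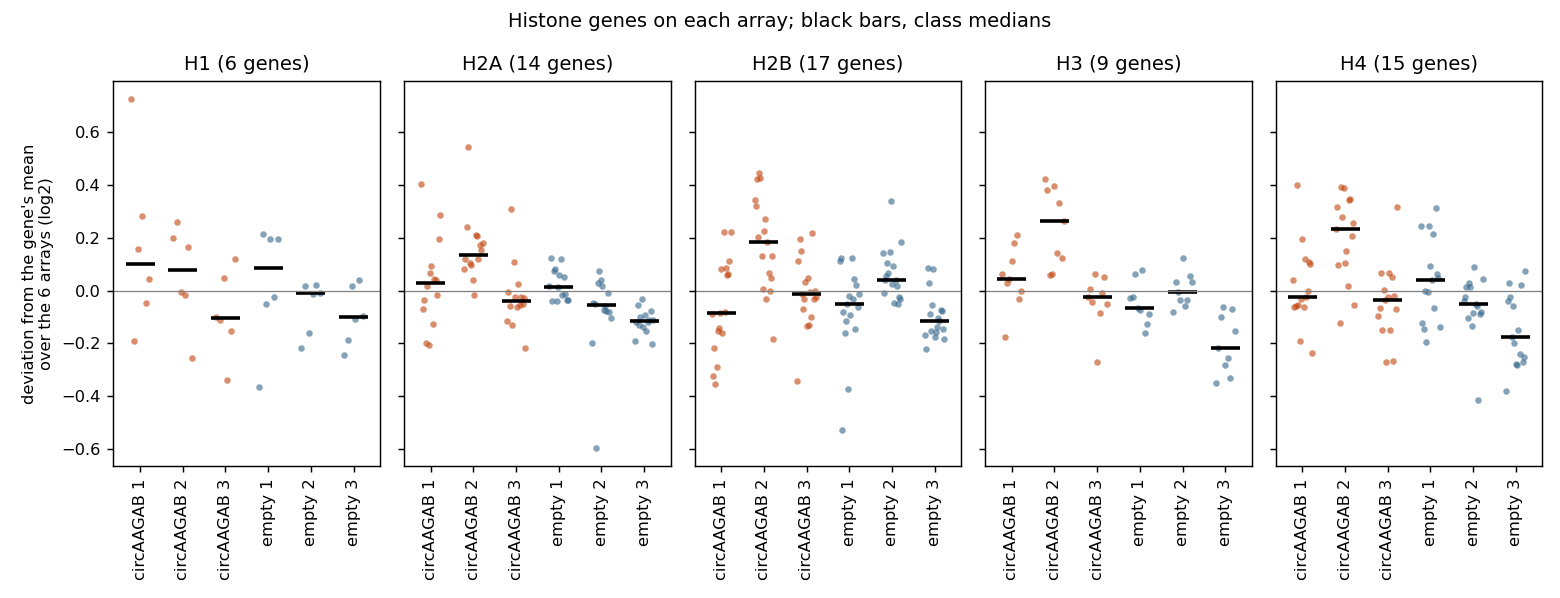
Deviation of each histone gene from its mean over the 6 arrays (y axis, log2) on each array (x axis), with 1 panel per class and black bars for class medians. The H3 and H4 medians stand at 0.26 and 0.23 on circAAGAB overexpression array 2 and at -0.22 and -0.17 on empty vector array 3.

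By replicate number, the difference between *circAAGAB* overexpression and empty vector was smallest in number 1 and largest in number 2. The medians were 0.04, 0.19 and 0.10 for numbers 1, 2 and 3. Whether the 2 arrays of number 2 belong together as a pair is not shown by their correlation. In number 1, 34 of 61 genes were higher (55.7%, background 52.7%), in number 2 it was 53 (86.9%, background 47.4%) and in number 3 it was 50 (82.0%, background 51.0%). In number 1, then, the histone genes stood close to the share of all probe sets. A total of 26 genes were higher in all 3 numbers (42.6%, background 15.4%) and 0 were lower in all 3. By class, the H3 genes were higher in 7, 9 and 9 of 9 in numbers 1, 2 and 3, and the H1 genes in 3, 4 and 4 of 6. The H4 median was 0.04 in number 1, 0.27 in number 2 and 0.18 in number 3. With both arrays of number 1 left out the median over the 61 genes was 0.14, and 54 were higher, a count for which no background share was computed.

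**Figure D4:**
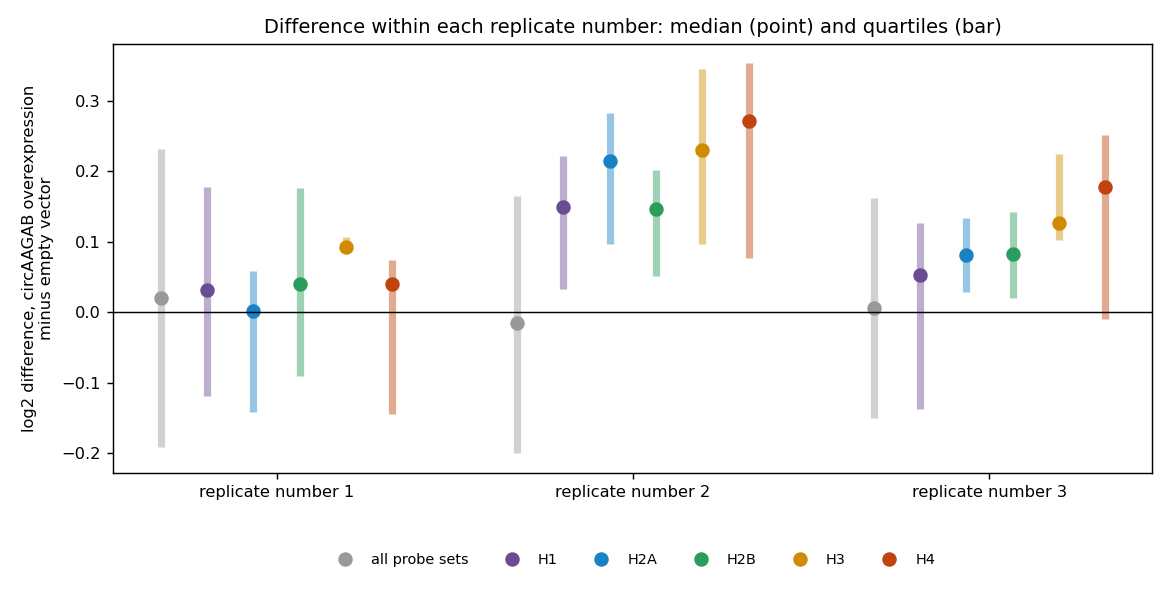
Median (points) and quartiles (bars) of the log2 difference between circAAGAB overexpression and empty vector (y axis) within each replicate number (x axis), for all probe sets in grey and the 5 histone classes. Class medians lie between 0.0022 and 0.09 in number 1 and between 0.15 and 0.27 in number 2, with all probe sets near 0 throughout.

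With the replicate number as a block, 2 genes had an unadjusted p under 0.05, *H1-1* (0.031) and *H3C10* (0.017), against 1 without it, and limma's adjusted p was 0.72 for both. The background under the block was 6.79%. The replicate number itself called a smaller share of the histone genes than of the array as a whole, a difference that was not tested. By limma's F test it passed an unadjusted p of 0.05 for 2 of 61 histone genes (3.28%), against 25.7% of all probe sets, with 0 at an adjusted p under 0.05 in either. The 2 genes were *H2BC4*, whose means over both groups were 6.54, 7.14 and 7.05 for numbers 1, 2 and 3 (limma, adjusted p = 0.11), and *H3C7*, with 5.79, 6.03 and 5.50 (limma, adjusted p = 0.15). *H2BC4* was thus low in number 1 and *H3C7* low in number 3. Of the histone genes' variance over the 6 arrays, 21.2% lay between the groups, 50.02% between the replicate numbers and 28.8% in the rest. The shares over all probe sets were 12.9%, 64.5% and 22.6%. These are shares of unlike totals, a sum of squares per probe set of 0.176 for the histone genes and 0.402 for all probe sets. A larger share between the groups is therefore not by itself a larger group difference. By class the share of the replicate number ran from 28.8% for H2A to 66.8% for H2B.

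The genes lie in clusters, defined here by gaps of over 500 kb between neighbours (GRCh38.p14). The largest, chr6:25726063-26285534, held 32 of the genes, of which 25 were higher, with a median difference of 0.10. The second chromosome 6 stretch, chr6:27132316-27147562, held 5 with 3 higher (median 0.04), and the third, chr6:27807479-27893891, held 12 with 10 higher (median 0.06). On chromosome 1 all 9 genes of chr1:149782689-149887965 were higher, with differences of 0.05 to 0.21 and a median of 0.14, and so were *H2AC25* and *H2BC26* at chr1:228457364-228458558. *H4C16*, alone on chromosome 12, read 3.58, 3.76 and 4.13 with *circAAGAB* overexpression and 3.68, 3.86 and 3.89 with the empty vector, below the gauge, with a difference of 0.01. A difference between the clusters was not tested, and the chromosome 1 cluster holds several of the near-identical copies. In 6 of the 8 divergent H2A and H2B pairs the partners' group differences lay within 1 standard error of each other, by the larger of the pair's errors, and the partners were not tested against each other. These errors ran from 0.14 to 0.25, while the differences of all 61 genes had quartiles of 0.03 and 0.16. Many pairs of histone genes that are not divergent could lie as close, so the count does not show that partners move together. *H2BC13* and *H2AC13* stood at 0.06 each and *H2AC14* and *H2BC14* at 0.01 and 0.04. The 2 wider pairs were *H2AC1* and *H2BC1*, at 0.25 and -0.06, and *H2AC8* and *H2BC8*, at 0.44 and -0.03. Sorted by promoter motif, the 22 genes with an octamer had a median difference of 0.08 and the other 35 with a window 0.10, and the 15 with the H4 element 0.13 compared with 0.08 for those without it. With and without the motif the medians were -0.02 and 0.10 for the H1 box, 0.09 and 0.15 for the CCAAT box and 0.0952 and 0.0875 for the TATA box. Most of these motifs follow class, so such medians largely repeat those of the classes.

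The factors that act on these genes did not show a common direction between the groups. *NPAT* read 6.37, 7.19 and 7.73 with *circAAGAB* overexpression and 6.31, 7.30 and 7.31 with the empty vector, a difference of 0.13 (SE 0.39). *CASP8AP2*, a histone locus body protein needed for histone mRNA processing, read 4.97, 6.76 and 7.26 against 5.72, 6.50 and 6.98. *SLBP* read 7.62, 8.79 and 8.51 against 8.09, 8.42 and 8.44, with a difference of -0.0090 (SE 0.29). In all 3 genes the groups overlapped and the arrays of number 1 were the lowest of their group (replicate number by limma's F test, unadjusted p = 0.0012, 0.0017 and 0.029, and adjusted p = 0.063, 0.066 and 0.16, for *NPAT*, *CASP8AP2* and *SLBP*). On those same number 1 arrays the median histone deviation was 0.02 and -0.02. *HINFP*, which binds H4 promoters, varied little and differed by -0.03 (SE 0.15).

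Of 24 measured genes of histone transcription and mRNA 3′ end formation, 10 were higher and 14 lower (median -0.0064), with 0 at an adjusted p under 0.05. *ZNF473*, a zinc finger protein of the U7 snRNP machinery, read 6.33, 6.25 and 6.36 with *circAAGAB* overexpression and 6.62, 6.71 and 6.61 with the empty vector. *CDK2*, which phosphorylates NPAT together with cyclin E, read 8.85, 8.82 and 8.83 against 9.18, 9.14 and 9.10. Both were lower on every overexpression array, with log2 differences of -0.34 (SE 0.13) and -0.31 (SE 0.13) and limma adjusted p of 1.00. Among 19 genes of histone mRNA decay 15 were higher (median 0.10), and *LSM1*, a subunit of the cytoplasmic LSM ring, read 7.58, 7.95 and 7.71 with *circAAGAB* overexpression and 7.30, 7.39 and 7.44 with the empty vector. Its groups did not overlap, and neither did those of *LSM6* (8.04, 7.94 and 8.03 against 7.71, 7.71 and 7.79). Neither gene passed the test, with adjusted p of 1.00 by limma.

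Of 23 histone chaperones 5 were higher and 18 lower, with a median of -0.12, opposite in sign to the histone genes, and 0 passed an adjusted p of 0.05. *DAXX*, a chaperone of H3.3, differed by -0.37 (SE 0.19) and *ASF1A*, a chaperone of H3 and H4, by 0.28 (SE 0.15). The 16 measured replication-independent variants split into 9 higher and 7 lower (median 0.03). *H2AX*, phosphorylated at DNA breaks, differed by 0.19 (SE 0.17), and *MACROH2A1*, which codes for macroH2A, by -0.18 (SE 0.14), with all overexpression arrays below the control arrays. Genes of DNA replication and the G1 to S transition, which share their time of expression with the histone genes, had 22 of 51 higher and a median of -0.04, with *GINS4* at -0.38 (SE 0.16) and *MCM7* at -0.31 (SE 0.15), both subunits of the replicative helicase. Genes of mitosis had 25 of 50 higher, with the kinesins *KIF20A* at -0.36 (SE 0.18) and *KIF4A* at -0.38 (SE 0.22). No gene of these lists passed an adjusted p of 0.05 by limma, and differences between the lists were not tested. Genes of blood cells and of stroma did not move one way with the histone genes, with 7 of 15 and 6 of 12 higher under *circAAGAB* overexpression and medians of -0.02 and -0.01. The smallest p among them belonged to *PDGFRA*, a growth factor receptor of stroma, at 0.40 (SE 0.17, limma, adjusted p = 1.00).

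**Figure D5:**
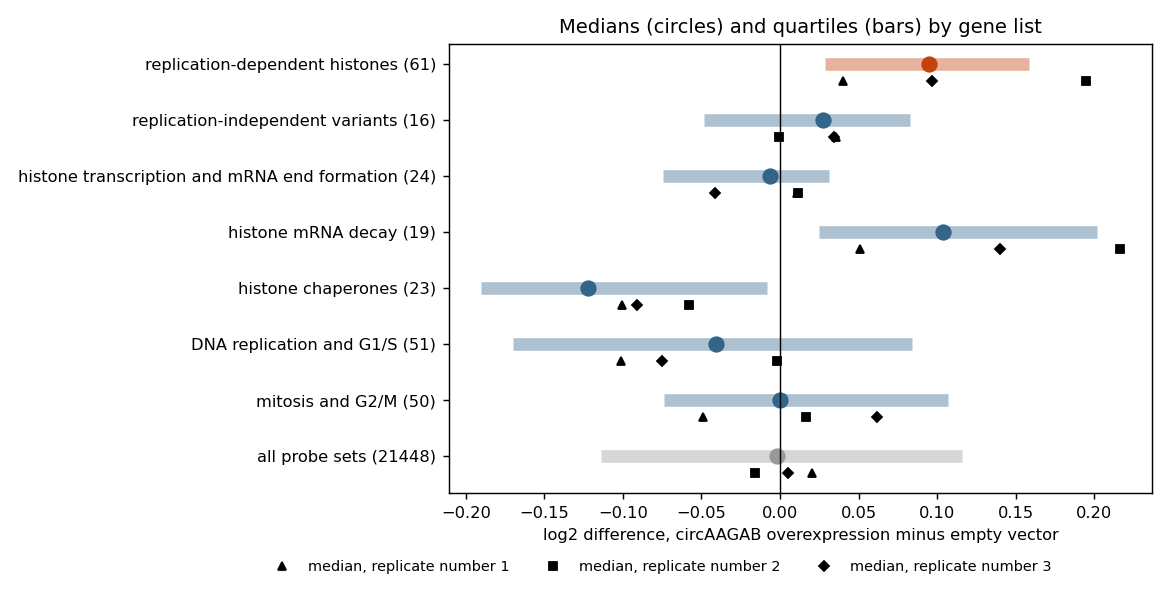
Log2 difference between circAAGAB overexpression and empty vector (x axis) for 7 gene lists and all probe sets (y axis, number of genes in brackets), as medians (circles), quartiles (bars) and medians within each replicate number (black symbols). The histone median of 0.09 lies above the medians of G1 to S genes (-0.04), mitotic genes (-0.00028) and chaperones (-0.12) and close to that of mRNA decay (0.10).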

How the data were processed

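RNA of 6 samples of MDA-MB-231 cells, 3 per group, was measured on Clariom S arrays. The arrays were normalized by the authors with RMA, robust multichip averaging, a method that the submitters' processing notes name too. The deposited log2 values, with 1 value for each probe set on each array, were used unchanged. A software version is not given in the sources used here. This normalization brings the arrays' distributions closer, so a shift of the whole transcriptome may be reduced, but the deposited distributions still differed, with SDs of 2.08 to 2.21 and 75th percentiles of 7.23 to 7.4. RMA can also leave cross-hybridisation between near-identical histone genes in place. Arrays give no read depth, and the number of arrays limits the precision.

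Gene names came from the platform's annotation table, checked against GRCh38.p14 gene symbols. A single symbol was held by 17709 of the 21448 probe sets, several by 0 and none by 3739. Where a gene had several probe sets, the one of highest mean signal was taken. Group differences were fitted in R 4.3.3 by limma 3.58.1 (lmFit and eBayes, two-sided, no covariate) with Benjamini-Hochberg adjustment over all probe sets, after testing the procedure on simulated data. The replicate number was tested by an F test on top of the group. The model of the group alone also gave the calls by the study's criteria (1.5-fold, unadjusted p under 0.05). The genes named were, in each class, up to 4 of smallest p, every gene past those criteria or without overlap of the groups' arrays, the largest difference in each direction, the 2 of smallest p for the replicate number, of each other list the 2 of smallest p, and *NPAT*, *SLBP*, *CASP8AP2* and *HINFP*. The remaining genes of divergent pairs, *H1-2*, *H1-5* and near-identical copies were named after their values were seen. The members, lists and tests were chosen with earlier results of these data known. Promoters were matched by symbol to RefSeq windows, and protein sequences were not used here.

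The deviations of same-numbered arrays from their group means correlated at 0.603 (number 1), 0.189 (number 2) and 0.549 (number 3) over all probe sets. Each is over 0.1, the cut of the rule used, and the labels' numbers were taken as pairs on that basis alone. For number 2 the pairing is not shown. There *circAAGAB* array 2 correlated more with empty vector array 3 (0.286), and *circAAGAB* array 3 correlated at 0.247 with empty vector array 2. Deviations within a group depend on each other, so these correlations are not independent. Over the histone genes alone the same-number values were 0.217, 0.024 and 0.349. The model without the block stayed the main one. Alternatives were the replicate number as a fixed or random block, each array left out, both arrays of number 1 left out, median centring, quantile normalization, dim probe sets left out, the mean over a gene's probe sets, the methods' unpaired Student test and a trended prior.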

Additional observations from a re-analysis of the deposited data

How the results depend on the processing

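The median difference over the 61 genes ranged from 0.038 (without *circAAGAB* array 2) to 0.121 when 1 array was left out and the number higher from 38 to 55, and no alternative brought a gene to an adjusted p under 0.05. The share of all probe sets that were higher was not computed with an array left out. The class medians moved more, with ranges over the arrays left out of -0.063 to 0.077 for H1, 0.036 to 0.12 for H2A, -0.0059 to 0.121 for H2B, 0.057 to 0.201 for H3 and 0.046 to 0.193 for H4. The H1 median was above 0 without *circAAGAB* array 3 (0.077) or empty vector array 1 (0.053), and the H2B median was below 0 without *circAAGAB* array 2. With both arrays of number 1 left out the medians were 0.039 for H1, 0.124 for H2B and 0.223 for H4, and 24 genes had arrays that did not overlap (39.4% of all probe sets, with 2 arrays a group), while quantile normalization left 3 (8.72%).

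Genes with an unadjusted p under 0.05, 1 in the main comparison, numbered 2 with the replicate block (6.79% of all probe sets), 3 with a random replicate block (7.62%), 2 by the methods' Student test (4.14%, *H2BC21* and *H3C6*) and 0 to 2 with an array left out (1.12% to 8.24%). With dim probe sets left out the 1 gene was *H3C10*, not *H1-1*. Among the genes named above, the unadjusted p of *LSM6*, *DAXX*, *ASF1A*, *MCM7*, *KIF20A*, *KIF4A* and the stroma gene *DCN* also came under 0.05 with the block. Over whole lists the block gave 3 of 24 transcription and 3′ end genes, 2 of 19 decay genes and 3 of 23 chaperones. It gave 4 of 51 G1 to S, 4 of 50 mitotic and 2 of 12 stroma genes, and 0 of 16 variants and 0 of 15 blood cell genes. The background was the same 6.79%. No histone gene had an adjusted p under 0.05. Genes that also passed 1.5-fold numbered 0 to 1 with an array left out (0.424% to 1.99% of all probe sets) and 1 (*H2AC8*, 1.13%) without both arrays of number 1. Of all probe sets 1 passed an adjusted p of 0.05 under every setting but the Student test, which gave 0. With dim probe sets left out 1 gene, *H2BC4*, passed an adjusted p of 0.05 for the replicate number (limma, adjusted p = 0.045).

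The sign of differences near 0 turned when an array was left out for *H1-6* (-0.14 to 0.052), *H1-4* (-0.20 to 0.11), *H2AC11* (-0.060 to 0.056), *H2BC1* (-0.24 to 0.10) and *H4C11* (-0.085 to 0.098). It also turned without number 1 for *H2AC11* (0.023), *H2BC1* (0.013) and *H4C11* (0.036), and after median centring for *H2AC11* (0.0049) and *H4C11* (0.0035). The causes were not tested. Over the 24 histone genes run under these settings, no other turned in sign and none reached an adjusted p of 0.05 for the group; genes of the other lists were compared only between the main comparison and the block. Of the 61 genes 13 lay below the background gauge, where small differences are limited by the signal.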
